A study of Mus musculus with 14 samples.

Results

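Macrophage genes are described here through 8 genes, Csf1r, Fcgr3, Lyz1, Lyz2, Lgals3, Ctss, Spp1 and Cxcl2, followed across single cells and whole intra-aortic haematopoietic clusters (IAHCs) of the mouse embryo. They are 8 of the 19415 gene symbols in the single-cell tables, and each has 1 entry per table. The genes were chosen with earlier results of these data known, so their levels across sorted populations are a description, and no test was run between populations. The question asked of them was how often several of these genes occur in the same cell.

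The study profiled cells of the aorta-gonad-mesonephros region (AGM) and yolk sac (YS) while haematopoietic stem cells form from endothelium, at E10 (28 to 32 somite pairs) and E11 (over 40 somite pairs), with CEL-Seq, which counts tagged 3′ ends of transcripts. There were 546 E10 cells and 575 E11 cells, each population being 1 sample made from pooled AGMs or yolk sacs. Non-haemogenic endothelial (non-HE) cells were sorted as Cdh5+Gfi1-Gfi1b-c-kit-, haemogenic endothelial (HE) cells as Cdh5+Gfi1+Gfi1b-c-kit-, and cells in endothelial-to-haematopoietic transition (EHT) as Cdh5+Gfi1+Gfi1b-c-kit+. These 3 populations came from ICR females crossed to males carrying the reporter alleles Gfi1+/tomato and Gfi1b+/GFP. C57BL/6 wild-type embryos gave the IAHC cells (c-kit+CD31+ at both stages, and c-kit+ at E11), the E11 type I (c-kit+Cdh5+CD45-) and type II (c-kit+Cdh5+CD45+) pre-haematopoietic stem cells (pre-HSCs), the c-kit+ YS cells, and the whole IAHCs picked from the ventral or dorsal wall of the aorta. Before deposit, sorted IAHC cells were kept only if they held Gpr56 transcripts, Gpr56 being a gene that marks IAHC cells, and were removed if they held genes of other cell types. Macrophages in these sorts may have been taken out in this way, so values in IAHC cells describe selected cells, and every deposited IAHC and pre-HSC cell holds Gpr56. Strain cannot be told apart from population between the reporter-sorted cells and the others. The E10 non-HE cells carry a name prefix that reads early E11, whereas their sample label reads E10, and the label was used. Names also differ in age within a label, since the E10 HE cells and 64 of the 191 E10 EHT cells read E10.5, the other E10 EHT cells late E10, and 11 of the 30 E11 non-HE cells E11.5.

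At E10 there were 43 non-HE, 98 HE, 191 EHT, 73 IAHC and 141 YS cells. At E11 there were 30 non-HE, 46 HE, 46 EHT, 201 c-kit+CD31+ IAHC, 89 c-kit+ IAHC, 62 type I pre-HSC, 55 type II pre-HSC and 46 YS cells, the pre-HSCs of both types sharing 1 sample. Every E10 cell held 3000 transcripts and every E11 cell 5000, with a median of 1811 and 2308 genes per cell. No 2 cells had the same values. E11 cells were thinned to 3000 transcripts where shares of cells were compared between stages, while summed levels and correlations used the deposited depth. Intervals are 95% Clopper-Pearson intervals for shares of cells and 95% Poisson intervals for sums. They cover counting error only, since cells of 1 sample are not replicates. Where a count is 0, the limit given is 3 counts of the total, which is lower than the upper end of the exact interval and limits cells with a detected transcript. Non-HE cells, read at the same depth, gave the background share of each gene.

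Macrophages engulf microbes, dead cells and debris, degrade them in lysosomes and recruit other leukocytes with chemokines. In the embryo they first arise from yolk sac progenitors and then settle in tissues, including those around the aorta. Most genes used to recognise macrophages are also used by monocytes, granulocytes or their progenitors, so a single one of them does not define the cell type.

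The label of macrophage genes fitted few of the cells. The lysozyme genes were the most widely detected of the 8, in many EHT, IAHC and pre-HSC cells that held few other macrophage genes. At E11, 85.5 to 93.5% of the transcripts of Lgals3, Ctss, Spp1 and Cxcl2 lay in 2 EHT cells. Fcgr3 and Csf1r were scattered at 1 or a few transcripts over many populations. The 8 genes are therefore taken in turn by role below, and the cells that combine them are described afterwards.

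**Figure D1:**
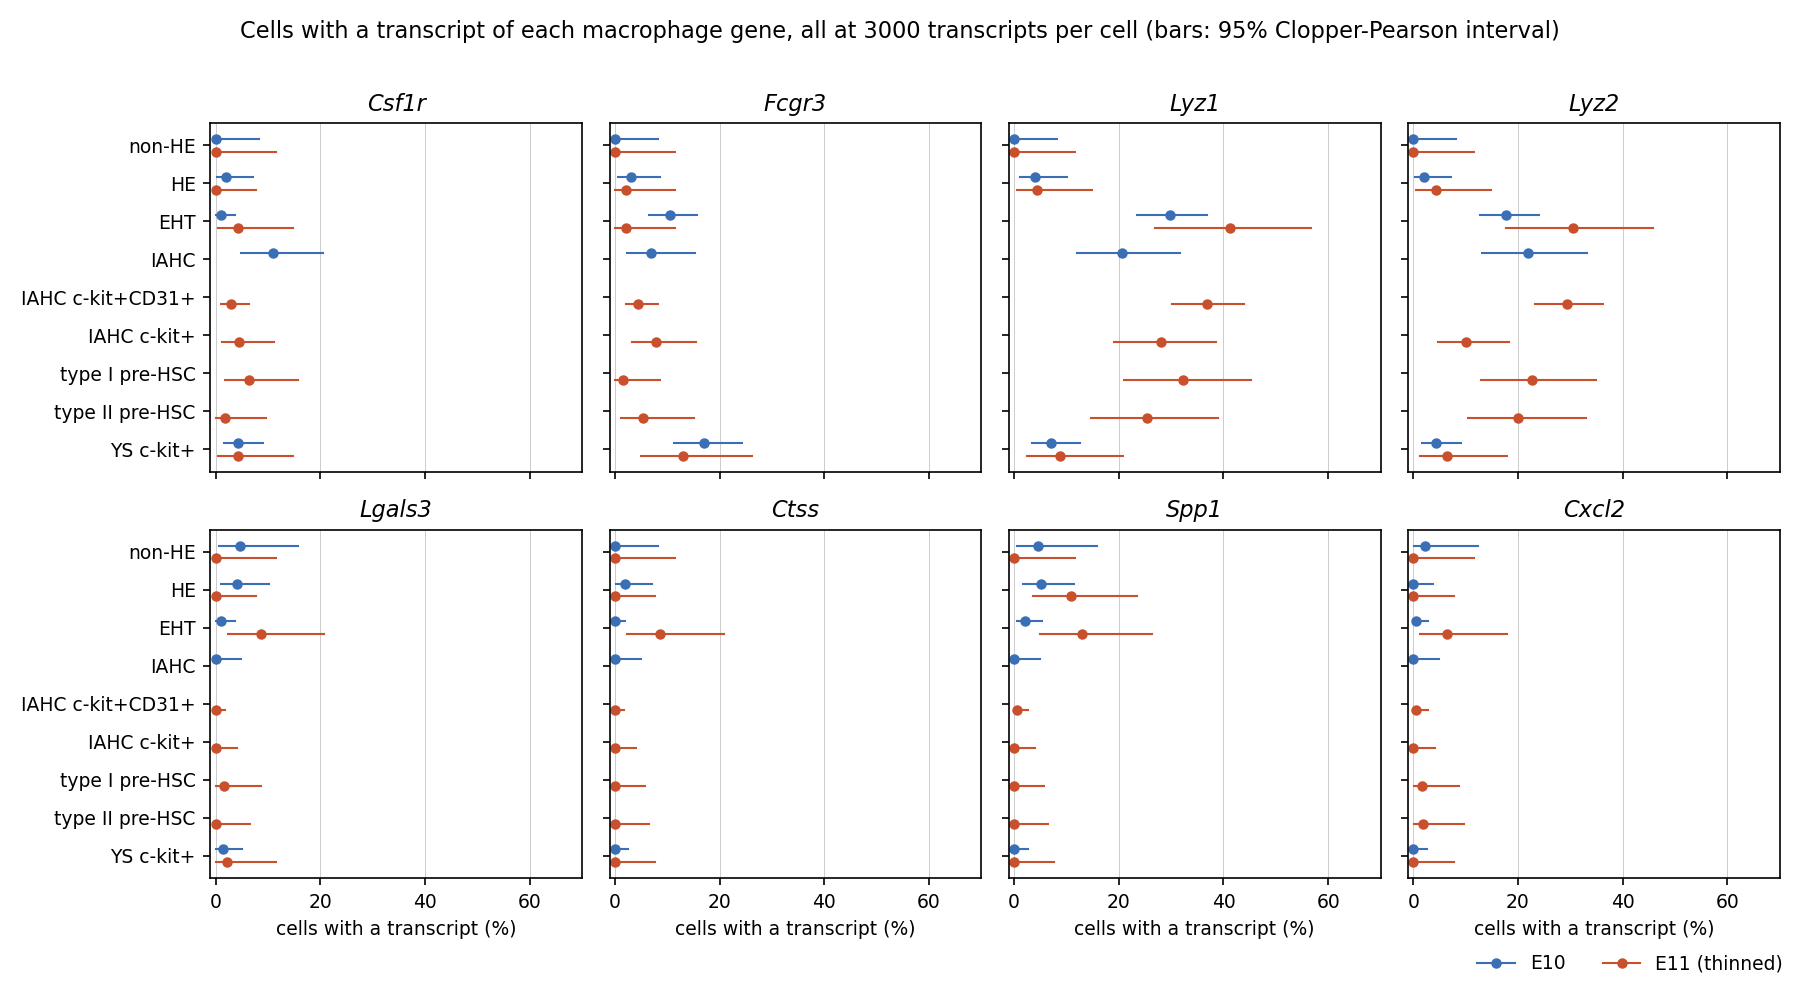
Percentage of cells with at least 1 transcript of each of the 8 genes, by sorted population, at 3000 transcripts per cell (E11 cells thinned). Points are shares and bars are 95% Clopper-Pearson intervals. Lyz1 and Lyz2 were spread over EHT, IAHC and pre-HSC cells, Fcgr3 was highest in YS cells, and Spp1, the broadest of the lower 4 genes, reached 13% of E11 EHT cells.

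Csf1r encodes the receptor for CSF1 and IL-34, on which most macrophages depend. It was detected in 18 of 546 E10 cells with 22 transcripts and in 21 of 575 E11 cells with 25 transcripts. At E10 the share was highest in IAHC cells, at 11% (8 of 73 cells, 4.85 to 20.5%), followed by YS cells at 4.26% (1.58 to 9.03%), HE cells at 2.04% (0.248 to 7.18%) and EHT cells at 1.05% (0.127 to 3.73%). It was in 0 of 43 non-HE cells, which allows up to 6.98%. The intervals of IAHC and EHT cells did not overlap, while each neighbouring pair in this order did.

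At E11, Csf1r was in 6.45% of type I pre-HSCs, 4.49% of c-kit+ IAHC cells, 4.35% each of EHT and YS cells, 3.98% of c-kit+CD31+ IAHC cells and 1.82% of type II pre-HSCs. The 2 EHT cells with Csf1r were the cells with 7 and 8 of the genes described below, and no other EHT cell had it. It was in 0 of 46 HE cells and 0 of 30 non-HE cells, which allows up to 6.52% and 10% of cells. The E11 shares above 0 all lay within each other's intervals, and none stood apart from the limit that non-HE cells allow. The most transcripts of Csf1r in 1 cell were 3 at E10 and 2 at E11. Its ligand gene Csf1 was present in the tables, and the gene of the other ligand, Il34, was absent from them.

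Fcgr3 encodes a low-affinity receptor for the constant part of IgG that signals through the shared gamma chain encoded by Fcer1g. It was in 52 E10 cells with 62 transcripts and in 42 E11 cells with 57 transcripts. YS cells had the highest share at E10, 17% (24 of 141 cells, 11.2 to 24.3%). EHT cells followed at 10% (20 of 191 cells, 6.51 to 15.7%), IAHC cells at 6.85% (2.26 to 15.3%) and HE cells at 3.06% (0.636 to 8.69%), with 0 of 43 non-HE cells. The YS share was above that of HE cells beyond counting error, and neighbours in the order were not.

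At E11 the share of cells with Fcgr3 was again highest in YS cells, 17.4% (8 of 46 cells, 7.82 to 31.4%). It lay between 2.17 and 9.09% in HE, EHT, IAHC and pre-HSC cells, and 0 of 30 non-HE cells had a transcript. With E11 cells thinned to 3000 transcripts the YS share was 13% (4.9 to 26.3%), within the E10 interval. Both YS sorted sets at E10 had the gene at similar shares, 15.4% of 65 cells and 18.4% of 76 cells.

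The cells with Fcgr3 were mixed in their progenitor genes. Mpo, the myeloperoxidase gene of granulocyte and monocyte progenitors, was in 18 of the 24 E10 YS cells with Fcgr3 (75%) and in 59 of the 117 without it (50.4%), and in E11 YS cells in 7 of 8 and 23 of 38. Mpo was also more frequent beside Fcgr3 in E11 c-kit+ IAHC cells (6 of 8 against 29 of 81) and c-kit+CD31+ IAHC cells (8 of 16 against 58 of 185), and in type I (2 of 2 against 9 of 60) and type II pre-HSCs (4 of 5 against 22 of 50). In E10 EHT cells the counts were 3 of 20 and 30 of 171, and in E10 IAHC cells 2 of 5 and 26 of 68, with no such gap. The groups with Fcgr3 are small, and the gaps were not tested. Cells with transcripts of both receptors were few, 4 at E10 and 1 at E11. Of these, 2 E10 cells and the 1 E11 cell held no Gpr56 and no Myb, a transcription factor gene of definitive progenitors, and all 3 recur among the cells described last.

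Lyz1 and Lyz2 encode lysozymes, enzymes that cleave bacterial cell walls and that macrophages and granulocytes store or secrete. They were the most abundant of the 8 genes, with 110 and 72 transcripts in E10 cells and 453 and 283 in E11 cells. Both lie on chromosome 10 (GRCm38.p6), Lyz1 at chr10:117287795-117292868 and Lyz2 at chr10:117277541-117282272, on the minus strand and 5523 bases apart. Their counts must be read with their likeness in mind. The last 500 bases of the transcripts, from which CEL-Seq reads come, were 95.4% identical, and 80 of 451 windows of 50 bases (17.7%) of Lyz1 occurred unchanged in Lyz2. How reads that fit both genes were assigned was not tested, so the genes are also given as a pair.

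The 250 bases before each start are shown because the genes were detected together more than any other pair. The windows, from RefSeq, were 79.4% identical, at chr10:117292869-117293118 for Lyz1 and chr10:117282273-117282522 for Lyz2, both on the minus strand and written 5′ to 3′. Capitals mark the longest run of bases shared by both, 50 bases that end directly before the start of the gene.
Lyz1: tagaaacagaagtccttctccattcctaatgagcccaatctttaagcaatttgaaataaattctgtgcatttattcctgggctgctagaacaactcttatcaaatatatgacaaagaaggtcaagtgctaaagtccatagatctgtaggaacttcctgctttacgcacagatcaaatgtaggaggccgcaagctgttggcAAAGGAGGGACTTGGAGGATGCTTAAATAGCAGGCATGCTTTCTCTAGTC
Lyz2: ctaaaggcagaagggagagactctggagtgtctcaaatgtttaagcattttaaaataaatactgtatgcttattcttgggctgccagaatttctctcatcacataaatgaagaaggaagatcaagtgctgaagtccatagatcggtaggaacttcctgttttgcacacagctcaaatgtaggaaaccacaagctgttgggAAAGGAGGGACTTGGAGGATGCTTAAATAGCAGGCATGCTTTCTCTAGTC

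At least 1 lysozyme transcript was found in 35.6% of E10 EHT cells (68 of 191, 28.8 to 42.8%) and 34.2% of E10 IAHC cells (23.5 to 46.3%). The shares were lower in YS cells, 9.93% (5.54 to 16.1%), and HE cells, 5.10% (5 of 98 cells, 1.7 to 12%), and 0 of 43 non-HE cells had one. EHT and IAHC cells did not differ beyond counting error, nor did YS and HE cells, whereas the intervals of the first pair lay above those of the second. The mean number of lysozyme transcripts was 0.607 per E10 EHT cell and 0.575 per E10 IAHC cell.

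At E11, lysozyme transcripts were in 61.7% of c-kit+CD31+ IAHC cells (124 of 201, 54.6 to 68.4%), 54.5% of type II pre-HSCs, 54.3% of EHT cells, 51.6% of type I pre-HSCs and 48.3% of c-kit+ IAHC cells (37.6 to 59.2%). The intervals of these 5 populations overlapped. The share was 21.7% in YS cells (10.9 to 36.4%) and 10.9% in HE cells (3.62 to 23.6%), and 0 of 30 non-HE cells had a transcript. At 3000 transcripts per cell the E11 shares were 50.2% in c-kit+CD31+ IAHC cells (43.1 to 57.4%) and 47.8% in EHT cells (32.9 to 63.1%), whose intervals overlapped those of the same sorts at E10.

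The sorted sets within a population did not always have the same share. Lyz1 was in 19 of 34 and 15 of 25 cells of the second type I and type II pre-HSC sets, but in 3 of 20 cells of each of the last sets. Lyz2 differed less, in 15 of 34 and 12 of 25 cells of the second sets and 7 of 20 cells of each of the last. Leaving out the second set lowered the summed 8 genes from 2.84 to 1.86 per 10000 transcripts in type I and from 2.76 to 1.73 in type II pre-HSCs. In the 4 sets of c-kit+CD31+ IAHC cells the share with Lyz1 lay between 42.4 and 54%. In the 5 sets of c-kit+ IAHC cells, of 7 to 26 cells, it lay between 13.3 and 52% for Lyz1 and between 6.25 and 71.4% for Lyz2, the lowest shares being close to those of E11 HE cells.

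Cells with a lysozyme transcript carried few of the other macrophage genes. A list of 23 genes, of 16 macrophage surface receptors, 4 adaptors and kinases of receptor signalling and the 3 C1q genes, had 405 transcripts in 267 E11 cells with lysozyme and 411 in 306 without, the 2 cells with 7 and 8 genes left out. Within every E11 population that had cells of both kinds, the intervals of cells with and without lysozyme overlapped. Within E10 IAHC cells the means were 1.4 per cell with lysozyme (0.942 to 1.90) and 1.6 without (1.3 to 2.1). In E10 EHT cells there were 100 transcripts in 68 cells with lysozyme and 115 in 123 without. Their means were 1.471 per cell (1.197 to 1.789) and 0.935 (0.772 to 1.122), with intervals that did not overlap. However, 18 of the 100 were in 1 cell, and whether the gap holds without it was not tested. Over all E10 cells, that cell included, 112 had lysozyme, with a mean of 1.438 (1.224 to 1.68). The other 434 had 0.961 (0.871 to 1.058), but these totals mix the sorts. In E10 HE and YS cells the intervals overlapped.

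Lyz1 and Lyz2 were often in the same cell. Of the cells with Lyz1, 32 of 86 at E10 and 117 of 219 at E11 also had Lyz2. Counted from Lyz2, these cells were 55.2% of 58 and 70.1% of 167 cells. Most cells that held exactly 2 of the 8 genes held this pair, 28 of 47 at E10 and 95 of 111 at E11.

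Lgals3 encodes galectin-3, a lectin that binds galactose-containing sugars on the cell surface. It was in 10 E10 cells with 16 transcripts and in 8 E11 cells with 81 transcripts. At E10 the populations with the gene were non-HE cells (4 transcripts in 2 cells), HE cells (8 in 4 cells), EHT cells (2 in 2 cells) and YS cells (2 in 2 cells). The non-HE share of 4.65% (0.57 to 15.8%) covered all the other E10 shares, so none of these was above background. At E11, 78 of the 81 transcripts were in 5 EHT cells, and 1 each in c-kit+CD31+ IAHC, type I pre-HSC and YS cells.

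Ctss encodes cathepsin S, a lysosomal protease that trims the invariant chain in antigen-presenting cells. It had 3 transcripts at E10, all in 2 HE cells, and both cells also held Lgals3. At E11 it had 77 transcripts, of which 76 were in 6 EHT cells and 1 in a c-kit+CD31+ IAHC cell.

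Spp1 encodes osteopontin, a secreted phosphoprotein that binds integrins and CD44. It differed from Lgals3 and Ctss in its breadth. At E11 it was in 7 of 46 HE cells (15.2%, 6.34 to 28.9%) and 9 of 46 EHT cells (20%, 9.36 to 33.9%), with 1 of 30 non-HE cells (3.33%, 0.0844 to 17.2%). The HE cells held 11 transcripts between them, at most 4 in 1 cell. The intervals of these 3 endothelium-derived sorts overlapped. Outside them Spp1 was in 2 of 201 c-kit+CD31+ IAHC cells and in no other E11 population, and at E10 its 12 transcripts were all in non-HE, HE and EHT cells.

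Cxcl2 encodes a chemokine that attracts neutrophils and that macrophages make on activation. It had 9 transcripts in 2 E10 cells, of which 8 were in 1 EHT cell that held none of the other 7 genes and had Cdh5, Gpr56 and Runx1, at 3, 4 and 2 transcripts. At E11 it had 60 transcripts in 6 cells, 57 of them in 3 EHT cells.

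The sequence before the start is shown for Ctss and Spp1, which were high in the same E11 cell. RefSeq windows of 250 bases (GRCm38.p6) were available for 7 of the 8 genes, all but Csf1r. GAGGAA, core letters bound by PU.1 and related ETS factors, was searched on both strands and was found in Fcgr3, Ctss and Spp1 and in 23.3% of all 32851 promoter windows. A match is only a description of the letters, and GAGGAA is too common to set the genes apart. A rarer NF-kB-type motif of 10 letters, in 1.2% of windows, was found in Cxcl2 alone, at 2 overlapping places. Capitals mark the motif in Ctss (chr3:95526536-95526785) and Spp1 (chr5:104434861-104435110), both on the plus strand, 164 and 113 bases before the start.
Ctss: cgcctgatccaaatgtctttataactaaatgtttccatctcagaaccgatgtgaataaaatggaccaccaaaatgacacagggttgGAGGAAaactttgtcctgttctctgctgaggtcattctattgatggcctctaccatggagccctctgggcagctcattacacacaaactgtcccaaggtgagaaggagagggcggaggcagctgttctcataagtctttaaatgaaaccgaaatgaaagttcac
Spp1: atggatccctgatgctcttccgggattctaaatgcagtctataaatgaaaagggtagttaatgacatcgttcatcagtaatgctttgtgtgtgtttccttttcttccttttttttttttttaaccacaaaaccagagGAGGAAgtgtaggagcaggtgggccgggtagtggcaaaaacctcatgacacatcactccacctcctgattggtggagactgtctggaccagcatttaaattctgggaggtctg

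Few cells combined the genes, and in IAHC cells the selection described above may have lowered their number. Transcripts of at least 3 of the 8 genes were found in 7 of 546 E10 cells (1.28%, 0.517 to 2.62%) and in 22 of 575 E11 cells (3.83%, 2.41 to 5.74%). At E10 these were 5 of 191 EHT cells, 1 of 98 HE cells and 1 of 141 YS cells. At E11 they were 8 of 46 EHT cells (17.4%, 7.82 to 31.4%), 11 of 201 c-kit+CD31+ IAHC cells, 2 of 89 c-kit+ IAHC cells and 1 of 55 type II pre-HSCs. With E11 cells thinned to 3000 transcripts the E11 number was 9 (1.6%, 0.718 to 2.95%). The stages hold different sorts, and within EHT cells the share was 2.62% at E10 (0.855 to 6.00%) and 8.70% in thinned E11 cells (4 of 46, 2.42 to 20.8%), with overlapping intervals. The E10 number rested in part on 1 sorted set of 40 EHT cells, without which it was 4.

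No cell held 5 or 6 of the genes. A gap in the number of genes per cell was seen at E11 alone, where it rested on 2 cells. At E10, 369 cells held 0, 123 held 1, 47 held 2, 6 held 3 and 1 held 4. At E11, 250 cells held 0, 192 held 1, 111 held 2 and 20 held 3, and the remaining 2 held 7 and 8. When the lysozymes were counted as 1 gene, only 3 E10 cells and 2 E11 cells held at least 3 genes, so most of these cells qualified through the lysozyme pair.

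**Figure D2:**
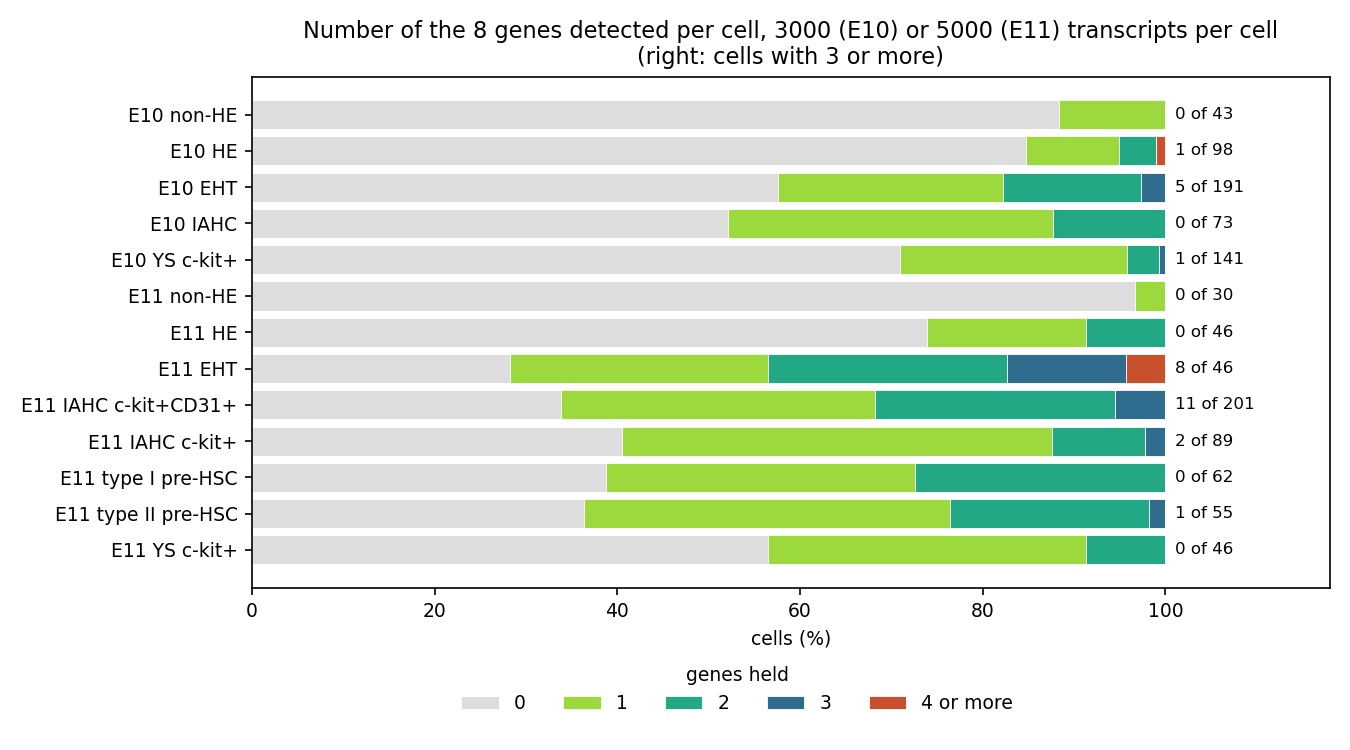
Percentage of cells by the number of the 8 genes with a transcript, for each sorted population, at the deposited depth (3000 transcripts per E10 cell, 5000 per E11 cell). Numbers on the right count the cells with 3 or more genes. The 2 E11 EHT cells with 7 and 8 genes and the E10 HE cell with 4 are the only cells beyond 3.

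All 20 E11 cells with exactly 3 genes held both lysozymes and 1 other gene. The other gene was Fcgr3 in 8 cells, Csf1r in 6, Spp1 in 3, Ctss in 2 and Cxcl2 in 1, at 1 to 4 transcripts. Kit was in 15 and Cdh5 in 13 of the 20. The 6 EHT cells among them, which were not selected for Gpr56, all held it. At E10, 4 EHT cells had the same composition, with Fcgr3 in 2 cells, Csf1r in 1 and Spp1 in 1, and all 4 held Gpr56, Kit and Cdh5. These 24 cells thus reached 3 genes through the lysozyme pair.

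The 2 E11 EHT cells with 7 and 8 genes were of another kind. The cell with 8 genes had 1 transcript of Csf1r, 2 of Fcgr3, 31 of Lyz1, 24 of Lyz2, 26 of Lgals3, 30 of Ctss, 4 of Spp1 and 30 of Cxcl2. The cell with 7 genes had 2 of Csf1r, 0 of Fcgr3, 18 of Lyz1, 5 of Lyz2, 48 of Lgals3, 42 of Ctss and 26 of Cxcl2, and the rest of the 130 Spp1 transcripts that the pair held together. Lgals3, Ctss and Cxcl2 were high in both, whereas Spp1 was high in 1 and Lyz2 mainly in the other.

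These 2 cells carried most of the E11 transcripts of 4 genes. They held 91.4% of the Lgals3 transcripts (74 of 81), 93.5% of Ctss (72 of 77), 85.5% of Spp1 (130 of 152) and 93.3% of Cxcl2 (56 of 60). Their part in the other genes was 10.8% of Lyz1, 10.2% of Lyz2, 12% of Csf1r and 3.51% of Fcgr3. The summed level of the 8 genes in E11 EHT cells, 23.7 per 10000 transcripts (21.7 to 25.8), was 5.91 (4.9 to 7.02) without them. That value was still the highest of any population, followed by 3.27 (2.93 to 3.65) in c-kit+CD31+ IAHC cells.

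**Figure D3:**
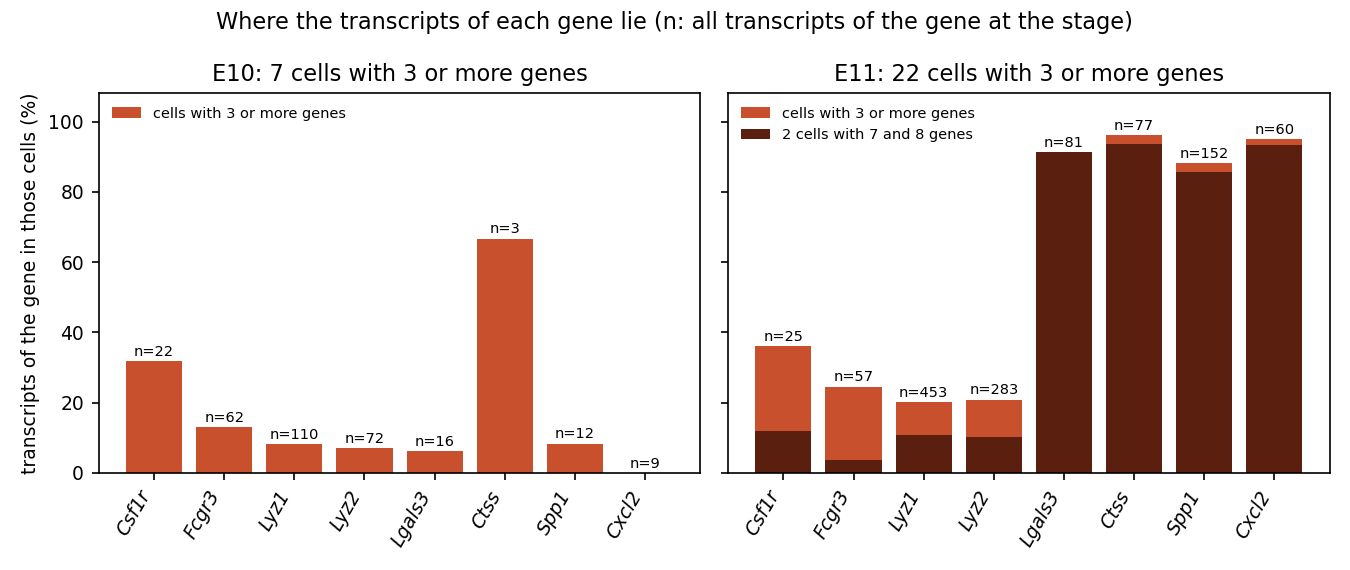
Percentage of all transcripts of each gene at E10 (left) and E11 (right) that lay in cells with 3 or more of the 8 genes. Dark bars show the 2 E11 EHT cells with 7 and 8 genes, which held 85.5 to 93.5% of Lgals3, Ctss, Spp1 and Cxcl2 but 10.8 and 10.2% of Lyz1 and Lyz2; n is the number of transcripts of the gene.

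Other macrophage genes were high in the same 2 cells. All 4 adaptor and kinase genes were detected with 38 transcripts, 22 of them Fcer1g, and 9 of 16 surface receptor genes with 62, 17 of them Cd68. Of 7 macrophage transcription factors 5 were detected, mostly Cebpb with 27 of 36 transcripts. All 10 cathepsin and lysosomal genes had a transcript, and their mean was 87.5 per cell against 8.45 in the 38 E11 EHT cells with fewer than 3 of the 8 genes. For 10 chemokine and cytokine genes, 9 of which were detected, the means were 85.5 and 0.5, and Ccl2 was highest with 44 transcripts. Csf1 had 2 transcripts, and 5 of 10 further leukocyte genes had 32, led by Lgals1.

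Some defining markers were at 0 in these 2 cells. They were the C1q genes C1qa, C1qb and C1qc, Emr1 (the F4/80 antigen), Mrc1, Cx3cr1, Mertk, Ccr2, Timd4 and Fcgr4 among receptors, and Cebpa and Maf among transcription factors. Ptprc, which encodes CD45, and Apoe also had 0 transcripts. The class II genes H2-Aa and H2-Ab1 had 34 and 15 transcripts in the cell with 7 genes and 2 and 1 in the cell with 8.

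Markers of the sorted population were absent from these 2 cells. None of 9 cluster and progenitor genes was detected, Kit, Gfi1, Runx1, Gpr56 and Myb among them, although the sort required c-kit and the Gfi1 reporter. Of 12 endothelial genes only Esam was found, with 1 transcript, and Cdh5 and Pecam1 were at 0. In the 38 other EHT cells the means were 14.9 transcripts of cluster and progenitor genes and 23.7 of endothelial genes per cell. Erythroid (9 genes), mesenchymal (10 genes) and mast cell or megakaryocyte genes (6 genes) had no transcript, and of 13 granulocyte genes only Cxcr2 did, with 7. The cells thus went against their population label, and why they were in this sort was not tested.

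**Figure D4:**
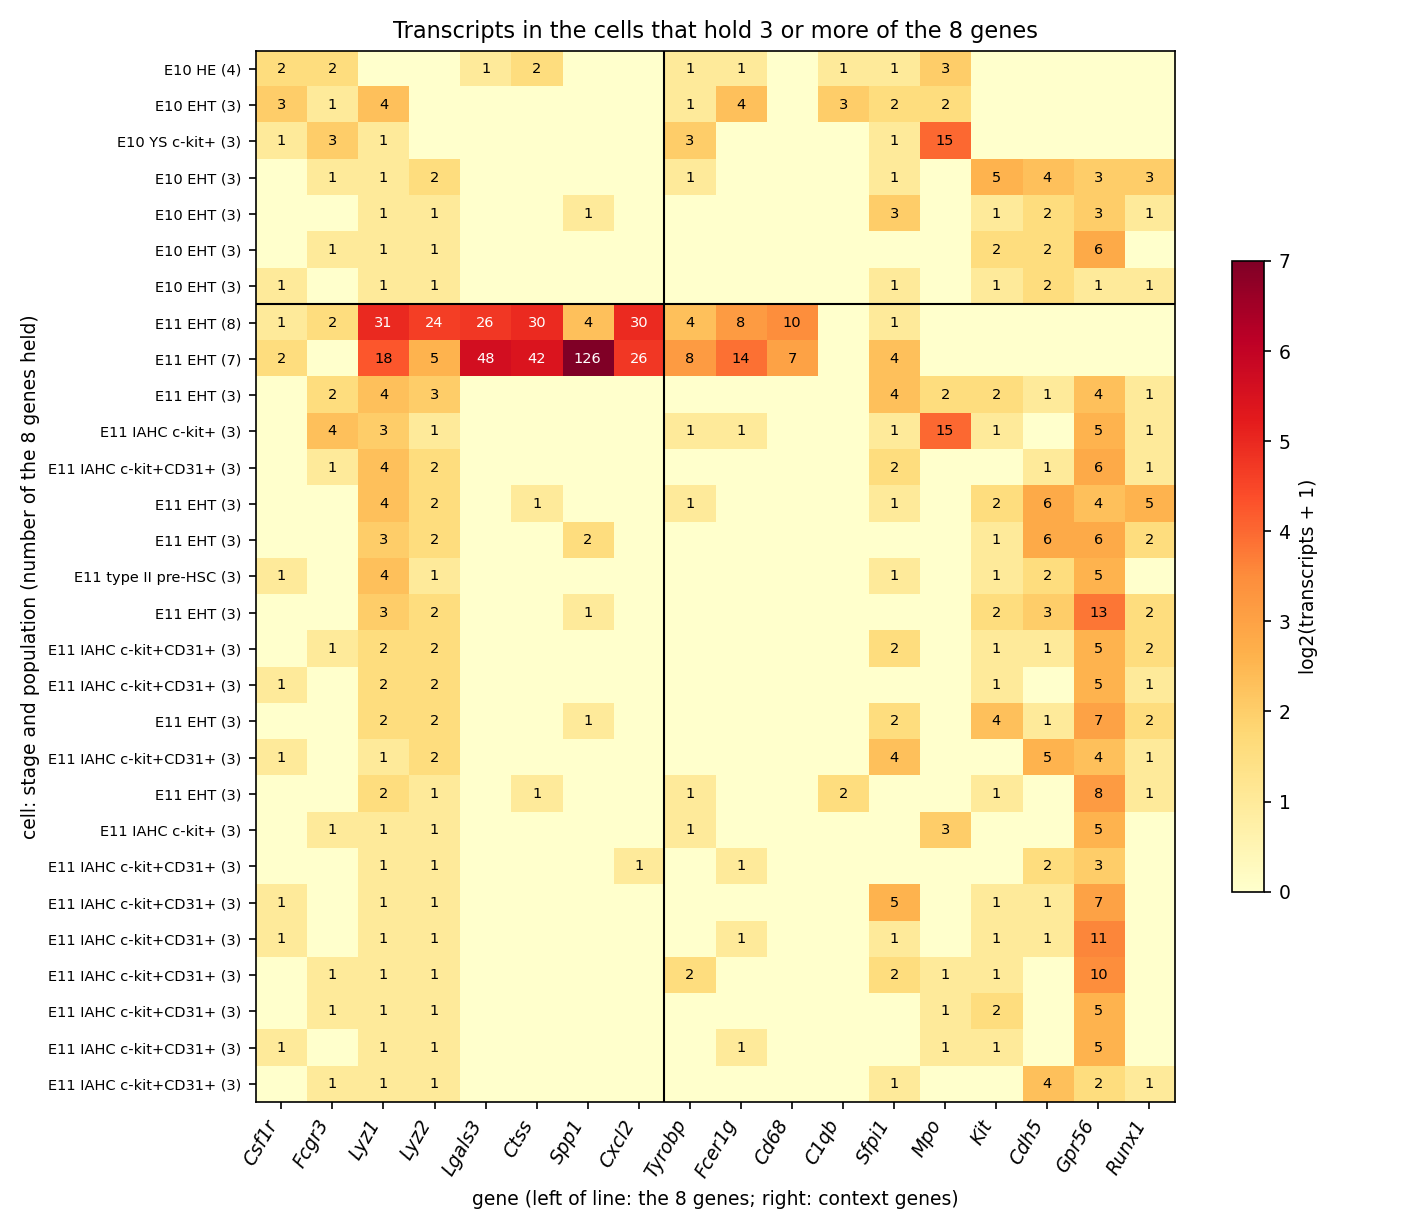
Transcripts in each cell with 3 or more of the 8 genes (rows; E10 above the horizontal line, 7 cells, and E11 below it, 22 cells) for the 8 genes and 10 context genes (columns). Colour is log2(transcripts + 1), numbers are transcripts and blank fields are 0. The 2 E11 EHT cells with 7 and 8 genes lack Kit, Cdh5, Gpr56 and Runx1, whereas the 6 E11 EHT cells with 3 genes all hold Gpr56.

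Of the E10 cells with at least 3 genes, 3 were without the lysozyme pair. The HE cell with 4 genes had 2 transcripts each of Csf1r, Fcgr3 and Ctss and 1 of Lgals3, and held 8 of the 23 receptor, adaptor and C1q genes with 14 transcripts, including Sirpa with 4 and Cx3cr1 with 3. An EHT cell had 3 transcripts of Csf1r, 1 of Fcgr3 and 4 of Lyz1, with 10 of the 23 genes at 18 transcripts and 9 transcripts of Ccl3. Neither had a transcript of Cdh5, Kit, Gpr56 or Runx1. The YS cell had 1 transcript of Csf1r, 3 of Fcgr3 and 1 of Lyz1 with 15 of Mpo and no C1q transcript.

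Against this list of 23 genes the other cells were low. Cells with 0 to 2 of the 8 genes held a median of 1 of the 23 genes at both stages, with a mean of 0.993 transcripts at E10 and 1.4 at E11, against 50 in the 2 E11 cells. At least 5 of the 23 genes were found in 1 E10 cell and 1 E11 cell with 0 to 2 of the 8 genes. Another E11 EHT cell, with Lyz1, Lyz2 and Ctss at 2, 1 and 1 transcripts, held 8 of the 23 genes, among them Emr1 with 1, C1qb with 2 and C1qc with 1, together with 8 transcripts of Gpr56.

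The genes whose pattern over cells was most like the sum of the 8 were ranked within each stage, at its own depth. Likeness was the Pearson correlation of log2(transcripts + 1) among 11146 E10 and 11755 E11 genes found in at least 5 cells. Cells of a stage share depth but not sort, so differences between the sorted populations enter the correlations. At E10, over 546 cells, the leading genes were Coro1a (r = 0.265), Alox5ap (0.252), Apoe (0.238), Lgals9 (0.232) and Plekhf1 (0.221). They were followed by Gpr56, Sfpi1, Tapbpl, Dock10 and Slc25a45, down to 0.195. Without the 7 cells with 3 or more genes, Coro1a had 0.261 and Alox5ap 0.255. Dock10 fell to 0.154, Plekhf1 to 0.180 and Sfpi1 to 0.188, whereas Lgals9 and Gpr56 rose to 0.261 and 0.256. These correlations were weak and did not rest on those cells alone.

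At E11, over 575 cells, the leading genes were Fcgr1 (r = 0.376), Cd68 (0.351), Mpeg1 (0.349), Cxcl1 (0.338) and H2-Ab1 (0.331), followed by H2-Aa, Bcl2a1b, Fabp3, Ccrl2 and Ccl6, down to 0.299. Without the 22 cells with 3 or more genes, Fcgr1 had 0.0506, Cd68 0.0372 and Mpeg1 -0.0417. The E11 likeness thus rested on a few cells, and 17 of the 24 Cd68 transcripts and 36 of the 39 H2-Aa transcripts were in the 2 EHT cells.

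Whole IAHCs are small bulk samples, in which fewer cells of a type and less RNA per cell cannot be told apart. Of 109 libraries, 57 had at least 5000 transcripts and were used, 21 ventral and 7 dorsal at E10, 17 ventral and 12 dorsal at E11, with 5099 to 115328 transcripts. Lgals3 and Ctss had 0 transcripts in all 57, which allows 2.27 transcripts in 1000000 (CPM) over the summed libraries. Spp1 had 1 transcript in 1 library, and Cxcl2 was in 5 libraries with at most 2. The genes that filled the 2 E11 EHT cells were therefore almost absent from clusters taken from the aortic wall. No library held more than 5 of the 8 genes.

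Lysozymes were common in clusters of every group. Summed Lyz1 and Lyz2 were at 195 CPM in ventral (162 to 231) and 237 in dorsal clusters (175 to 314) at E10, and at 160 in ventral (119 to 208) and 223 in dorsal clusters (147 to 320) at E11. The medians over libraries were 152, 250, 147 and 187 CPM, with lowest values of 0 and highest values of 824, 603, 658 and 866. The groups overlapped throughout. Single IAHC cells were at 192 CPM at E10 (138 to 259) and, in E11 c-kit+ cells, at 182 (145 to 226), within the intervals of the clusters. E11 c-kit+CD31+ cells were higher, at 297 (264 to 332), above the interval of E11 ventral clusters but within that of E11 dorsal clusters (147 to 320).

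Fcgr3 differed more between the stages. It was in 13 of 21 E10 ventral clusters with a median of 42.5 and a highest value of 167 CPM, and in 3 of 17 E11 ventral clusters with a median of 0 and a highest value of 120. On the dorsal side it was in 2 of 7 E10 clusters, at up to 151 CPM, and in 0 of 12 E11 clusters. The libraries of the stages overlapped, since each group had libraries at 0. Summed levels were 66.1 CPM (48.5 to 89.6) in E10 and 9.02 (1.86 to 26.3) in E11 ventral clusters, a ratio of 0.136 with a counting interval of 0.0268 to 0.421 from 44 and 3 transcripts. The 2 E11 sets of library names, iAHC2 and iAHC, had 8.93 and 9.21 CPM, and the labels do not say what these name sets stand for. Dorsal clusters had 34.9 CPM at E10 (13.9 to 71.2) and 0 at E11, where 3 counts over the group would be 23.7, and 6 of the 7 E10 transcripts were in 1 library, the deepest. In single c-kit+CD31+ IAHC cells Fcgr3 was at 27.4 CPM at E10 (10.1 to 59.6) and 17.9 at E11 (10.6 to 28.3), both at the deposited depth and with overlapping intervals.

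Csf1r was in 8 of 21 ventral and 1 of 7 dorsal clusters at E10, and in 3 of 17 ventral and 0 of 12 dorsal clusters at E11. Its summed levels were 12.2, 4.95, 12 and 0 CPM, with a floor of 23.7 CPM in E11 dorsal clusters. No library had more than 2 transcripts, so a stage difference in Csf1r was not detectable at this depth.

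**Figure D5:**
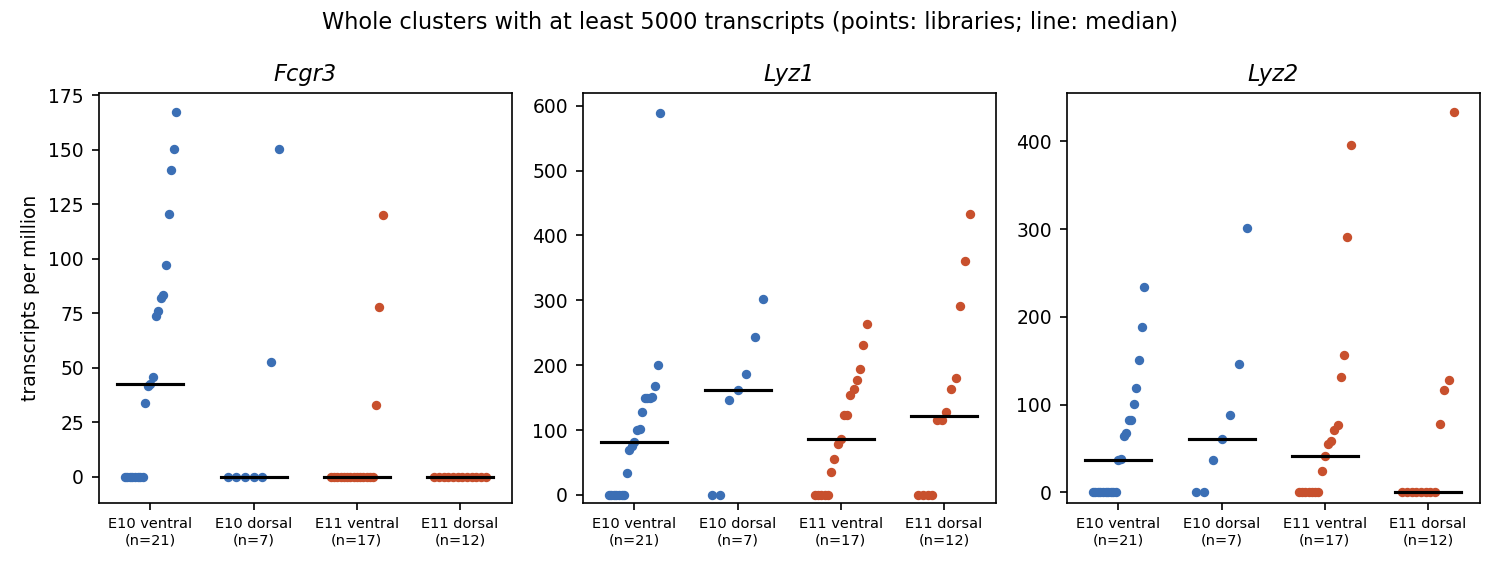
Transcripts in 1000000 (CPM) of Fcgr3, Lyz1 and Lyz2 in whole IAHCs with at least 5000 transcripts, by stage and side of the aorta; points are libraries, lines are medians, and each plot has its own scale. Fcgr3 was found in 13 of 21 E10 ventral and 3 of 17 E11 ventral clusters, while lysozymes were found in every group.

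Tests on whole IAHCs reached few of these genes. Clusters of the same embryo cannot be recognised, so p-values over clusters are too small if embryos differ. The edgeR quasi-likelihood test kept 260 genes after its filter on low counts, and none of the 8 was among them. E11 differed from E10 in 81 of 260 genes (31.2%) in ventral and 24 (9.23%) in dorsal clusters at an adjusted p below 0.05. With name set as a term these counts were 39 and 25. No E10 library is in the iAHC2 set, so this term leaves E10 against the E11 iAHC set, with 4 ventral and 6 dorsal libraries. It does not correct the stage comparison for batch. DESeq2 fitted 13627 genes, with 6 of the 8 among them, and called 1.75% in ventral and 0.455% in dorsal clusters. It called 0 of the 8, but gave an adjusted p to Lyz1 and Lyz2 alone, since its own count filter removed the other 4, of which Spp1 had 1 transcript in all. At an unadjusted p below 0.05 it had 847 of 13627 genes in ventral clusters, with Fcgr3 among them (p = 0.0179, n = 21 and 17), and none of the 8 among 625 in dorsal clusters.

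With no filter, edgeR tested the same 13627 genes and called 1 of 6 in ventral clusters, where it called 2.27% of all genes. It was Fcgr3, with a log2 fold change of -2.26 at E11 (SE 0.57, adjusted p = 0.00570), found in 3 of 17 against 13 of 21 libraries. The SE given for edgeR was worked back from the fold change and its test statistic, and is not a fitted SE as in DESeq2. In dorsal clusters edgeR with no filter called 0 of 6 against 0.785% of all genes, and Fcgr3 (adjusted p = 0.202) was among 1402 of 13627 genes with an unadjusted p below 0.05. Fcgr3 had 0 transcripts in the 12 E11 dorsal libraries, so the size of its change there cannot be estimated. The fitted log2 values depend on how each tool treats 0 counts. They were -2.74 (SE 0.999) in edgeR with no filter and -0.224 (SE 1.09, unadjusted p = 0.837, n = 7 and 12) in DESeq2. The difference between the sides (interaction) rests on the same 0 counts, so its sign and size are not read. It was not past the threshold in edgeR with no filter (log2 0.474, unadjusted p = 0.258, n = 57) or in DESeq2 (-1.46, unadjusted p = 0.260). A stage effect limited to the ventral side is thus not shown. Haemoglobin transcripts also rose at E11, all 3 tested erythroid genes being higher on both sides, with a median share of 0.0138% in E10 and 0.303% in E11 ventral clusters, and in ventral clusters Cxcr2, a granulocyte gene, was higher (log2 fold change 1.58, adjusted p = 0.00565) and Cd34 lower (-0.96, adjusted p = 0.00961). Their part in the Fcgr3 result was not tested.

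Between the sides, none of the 8 genes was called. Ventral and dorsal clusters differed in 0 of 260 genes with edgeR at E11, where 23 had an unadjusted p below 0.05 and DESeq2 called 0.00734% (1 gene). At E10 edgeR called 0, with 20 at an unadjusted p below 0.05, and DESeq2 0. The interaction of stage and side gave 0 with both tools and 26 at an unadjusted p below 0.05 with edgeR. Spp1, with 0 transcripts at E11, could not be tested in all of these. Of the 5 other genes fitted, DESeq2 and edgeR with no filter had 0 at an unadjusted p below 0.05 in these 3 comparisons, where edgeR with no filter called 0.0881, 0.0587 and 0.154% of all genes.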

How the data were processed

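The authors mapped reads with BWA 0.6.2-r126 to mm10, per the submitters' notes, and made estimated counts of transcripts from unique molecular identifiers. Deposited single-cell counts had been down-sampled to 1 total per cell and raised by 0.1, which was taken off. The Methods state 5000 transcripts, and E10 cells held 3000. Deposited counts of whole IAHCs were corrected for identifier collisions and not scaled. Here 90 spike-ins were left out, counts were rounded, and 4 groups were fitted with edgeR 4.0.16 (TMM, filterByExpr, quasi-likelihood) or DESeq2 1.42.0 in R 4.3.3, tested on simulated data, with Benjamini-Hochberg adjustment over all genes. Python 3.11.15 with numpy 2.4.6, scipy 1.17.1, pandas 2.3.3, matplotlib 3.10.9 and Biopython 1.88 served for the rest. Genes and lists were chosen with earlier results of these data known. Named are the 8 genes, list genes in cells with at least 3 of them, and the 10 most alike genes per stage. Genes or cells singled out beyond this were chosen after their values were seen. No doublet caller was run, since cells were sorted into wells and depths equalised.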

Additional observations from a re-analysis of the deposited data

Results flagged for a closer look

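In the 7 E10 dorsal whole IAHCs, 1 library lay far above the others for each of 4 measures, in 2 different libraries. Fcgr3 reached 151 CPM in 1 library, against 52.6 in the next, and this was 1 transcript in a library of 6656. The same library had 754 CPM of the 8 genes together, against 320 in the next. Chance alone marks about 1 in 20 groups where values are normally distributed, and the rate for counts as sparse as these was not measured. Csf1r and Cxcl2 were each at 8.69 CPM in the deepest library, with 115328 transcripts, and at 0 in the other 6. Both were 1 transcript, and a gene with a single transcript in a group is always marked.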

How the results depend on the processing

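The number of cells with at least 3 of the 8 genes depended on how a cell qualified. At E10 it was 7, and became 54 with at least 2 genes, 1 with at least 4, 3 with lysozymes as 1 gene and 1 when 2 transcripts of a gene were needed. At E11 it was 22, and became 9 in thinned cells, 133, 2, 2 and 4 in the same order. Leaving out sorted sets, where a population had 2 or more, gave 4 to 7 at E10 and 17 to 22 at E11, but 8 of the 22 were in the only E11 EHT set. Summed levels per 10000 transcripts in E11 EHT cells fell from 23.7 to 4.84 without the cells with at least 3 genes, and to 5.91 without the 2 cells with 7 and 8, an alternative chosen after seeing the data. In E11 non-HE cells the level was 0.0667 and became 0 in thinned cells. With sorted sets left out, levels ranged from 0.238 to 1.1 in E10 non-HE cells, against 0.543 with both, from 0.0901 to 1.64 in E10 HE cells, from 0 to 0.182 in E11 non-HE cells, from 1.81 to 2.54 in c-kit+ IAHC cells, from 1.86 to 3.24 in type I and from 1.73 to 3.26 in type II pre-HSCs. The cause was not tested.

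In whole IAHCs, the number of genes called at E11 against E10 was 81 in ventral clusters. It was 238 with DESeq2, 310 with no filter, 132 with at least 10000 transcripts and 39 with name set as a term. In dorsal clusters it was 24, and 62, 107 and 3 under the first 3 of these. With no filter 12 genes were called between the sides at E11, 8 at E10 and 21 for the interaction, and DESeq2 called 1 between the sides at E11, against 0 in each case. More genes were tested in these settings, up to 13627. Without the 3 libraries with over 10% haemoglobin, chosen after seeing the data, the ventral and dorsal counts were 73 and 25. Of 127 alternatives, 97 left a value within its interval or a count within 1.5 times. Leaving out the library with the most transcripts of the 8 genes, in each group in turn, gave 66 to 83 genes in ventral and 20 to 26 in dorsal clusters, and 0 between the sides and for the interaction. Each sample label gives 1 sample per group, and no paired analysis was run. Collection sets in the names are shared by E11 ventral and dorsal clusters and entered only as the term above. Type I and type II pre-HSC sets share numbers too, and Lyz1 was high or low in the same sets of both, but they were not tested as pairs. Absence is limited by the number of cells and their depth, and in IAHC cells also by the selection for Gpr56 before deposit. Each population was 1 sample, so no spread between samples is known, and intervals are too narrow by an amount that cannot be told. Pooled embryos and 2 strains lie behind the sorts. Likeness of the lysozyme transcripts limits what can be said of each alone. The cells with 7 and 8 genes came from 1 sorted set.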

Other observations

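A second E10 HE cell, of the same sorted set as the HE cell with 4 genes, had 5 transcripts of Lgals3 and 1 of Ctss, and 5 of H2-Aa, 3 of Cd74 and 1 of H2-Ab1, which encode class II antigen presentation proteins and their chaperone. Cdh5, Kit, Gpr56 and Runx1 were at 0 in it, and 1 of the 23 receptor, adaptor and C1q genes was detected. Of the 31 transcripts of the 8 genes in E10 HE cells, 30 were in this sorted set of 61 cells and 1 in the other set of 37 cells.

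The E11 EHT cells came from 1 sorted set, so no other set shows how often cells such as the 2 with 7 and 8 genes occur there. In the last type I and type II pre-HSC sets, where Lyz1 was in 15% of cells, Fcgr3 was in 10% and 20% of cells, against 0 and 4% in the second sets.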
